A study of Danio rerio with 17 samples.

Results

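In the midbrains of 9 Transgenic Mosaic 1 zebrafish, 58 of 15648 measured genes (0.371%) had no intermediate level: each was high in some fish and low in the others, with an empty interval between. Such on-off genes were chosen from the values of these 9 fish alone. The 9 log2 values of a gene were sorted, and a gene was taken where the largest gap between neighbouring values was at least 1.5 log2 units, neither side of the gap spanned more than the gap itself, and each side held 2 or more fish. Of 190 genes with such a gap, 125 had a single fish on one side, and 65 had 2 or more fish on each side. All 3 criteria were met by 59, of which 1 was left out by name. Because the values chose the genes, the levels of the Transgenic Mosaic 1 fish are described below without a test, and the 8 fish of the other population, which the choice did not use, are set beside them.

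The study measured total RNA of single midbrains from male zebrafish, sexually mature and 1 year old, on single-colour Cy3 NimbleGen expression arrays. The fish belonged to 2 populations, Pargana and Transgenic Mosaic 1, and for 10 weeks they ate food whose selenium, supplied as the amino acid selenomethionine, was 0.46 ppm in the deficient diet, 1.7 ppm in the control diet or 3.1 ppm in the supplemented diet. There were 3 fish for each population and diet except Pargana control, which had 2, so that 17 arrays entered the analysis. The labels give no transgene, promoter or line for either population, and the numbers of fish within a diet are names only. One fish, Pargana deficient fish 3, carries another letter in its code where the other Pargana codes have a P, although its strain label says Pargana. Some results that rest on it are given with and without it, and the others with it only.

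Several of these genes belong to well known families. Solute carriers and organic anion transporters move small molecules across cell membranes, and claudins seal the contacts between epithelial cells. Chemokines call white blood cells to a tissue, and immunoproteasome subunits, which interferon induces, cut proteins into peptides that MHC class I molecules display. TRIM proteins are ubiquitin ligases, a family that has expanded in fish and takes part in antiviral defence. Many other zebrafish genes are known only by the name of the clone in which they were found.

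The arrays had medians of 9.62 to 9.73 log2 units in all 17 fish. Neuron markers, 14 measured, averaged 13.23 to 13.39 per fish and midbrain regional markers, 12 measured, 10.76 to 11.02, against a median of 9.67 over all genes. Marker scores, which are mean deviations from each gene's mean over all arrays, separated single fish for other tissues. The eye and pineal score (26 genes) was 1.16 in Transgenic Mosaic 1 deficient fish 2 and between -0.39 and -0.08 in the other 8, and the muscle score (17 genes) lay between -0.71 and 0.02 in Transgenic Mosaic 1 and reached 1.49 in Pargana. None of the on-off genes was among the features used for the 11 marker lists. Only the brightest feature of a symbol was used. An on-off feature with the symbol FABP7, a symbol of the radial glia and astrocyte list, was left out in this way.

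The gap was 1.53 to 5.80 log2 units wide, with a median of 2.40; it exceeded 3 in 18 genes and was under 2 in 23. The mean of the high fish exceeded that of the low fish by 1.72 to 6.26 log2 units, with a median of 3.21. Low levels lay mostly near the bottom of the array: the mean of the low fish was in the lowest 10% of all genes for 18 members and in the lowest 25% for 42. It was above the median gene for 2, si:dkeyp-1h4.9 and mfap2, a protein of extracellular microfibrils, so that these genes moved between a moderate and a high level. At the edge of the rule, ENSDARG00000017730, the homeobox gene GSC (goosecoid) and rnf17, a germline protein in the mouse, were just inside, each with a gap of 1.53, and TECTB, zgc:136872 and the opsin opn8a just outside, each with a gap of 1.49.

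**Figure D1:**
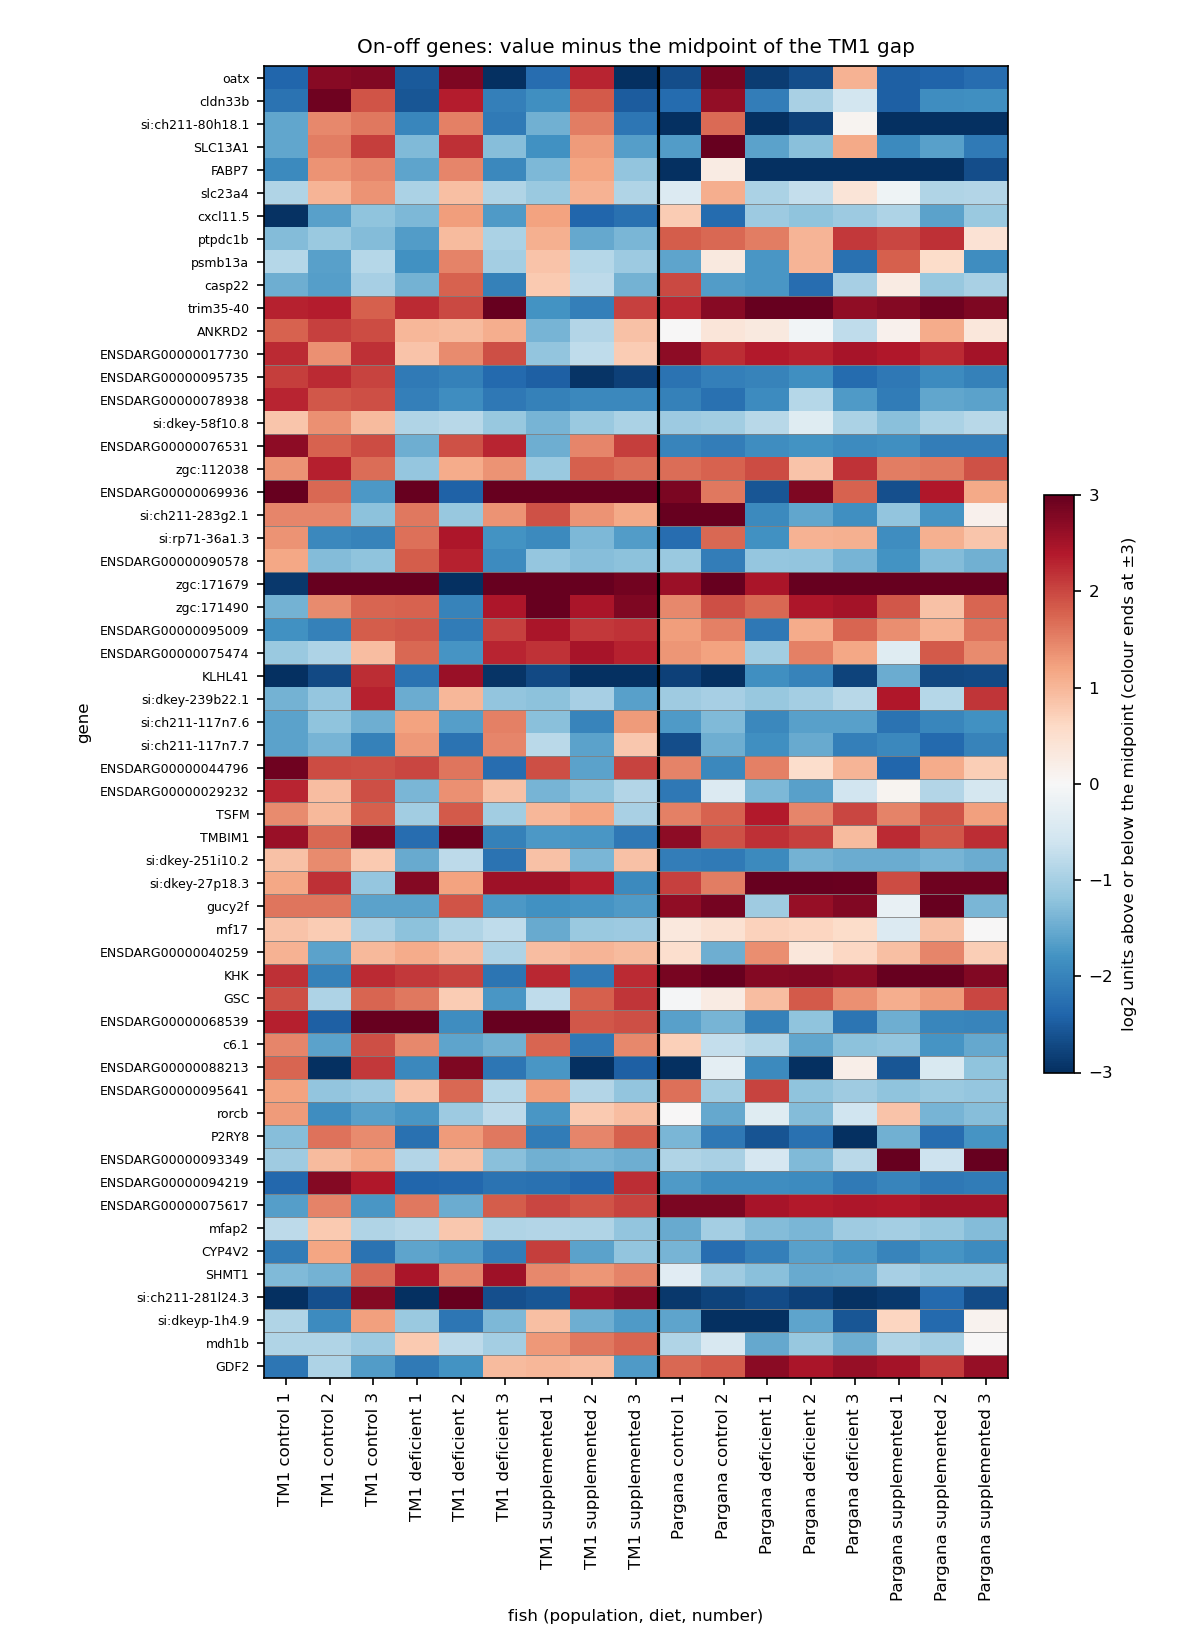
Colour map of the on-off genes (rows, all members but 1) in the 9 Transgenic Mosaic 1 fish (TM1, left of the black line) and the 8 Pargana fish (right). Red is above and blue below the midpoint of the TM1 gap, in log2 units, with colours ending at 3 units on either side. Thin lines separate genes with different splits of the fish. Blocks of genes share a split among TM1 fish, while most rows on the Pargana side are of 1 colour or follow another division.

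Most splits crossed the diets. In 54 of 58 genes at least 1 diet group held fish of both states, and 4 genes divided the fish exactly by diet. Few of the possible ways to divide the fish follow the diets exactly, so nothing about diet is read from these counts. Fish of both states were found in the control group for 36 genes, in the deficient group for 43 and in the supplemented group for 32. There were 38 different splits, or 31 when the high and the low side are not told apart. With high and low told apart, 11 splits were shared by 2 or more genes and held 31 members, and 27 members had a split of their own. Some of these 27 divided the fish as another member did, with high and low exchanged. The high side was the smaller one in 34 genes and the low side in 24.

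Transgenic Mosaic 1 deficient fish 2 stood with the smaller side most often, in 31 of 58 genes, and supplemented fish 3 least often, in 9. The number of genes in the high state ran from 20 in deficient fish 3 to 38 in control fish 3. Among the 36 pairs of fish the count of genes in a common state was between 20 and 47 of 58. Deficient fish 1 and supplemented fish 3 shared the most, 47 genes, followed by deficient fish 3 with supplemented fish 3 (45) and deficient fish 1 with deficient fish 3 (44). The 9 pairs on the same diet shared 21 to 44 genes, with a median of 35, and the 27 pairs on different diets 20 to 47, with a median of 30; the ranges overlap over nearly their whole width. Deficient fish 2 shared only 23 and 21 genes with the other fish of its own diet.

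**Figure D2:**
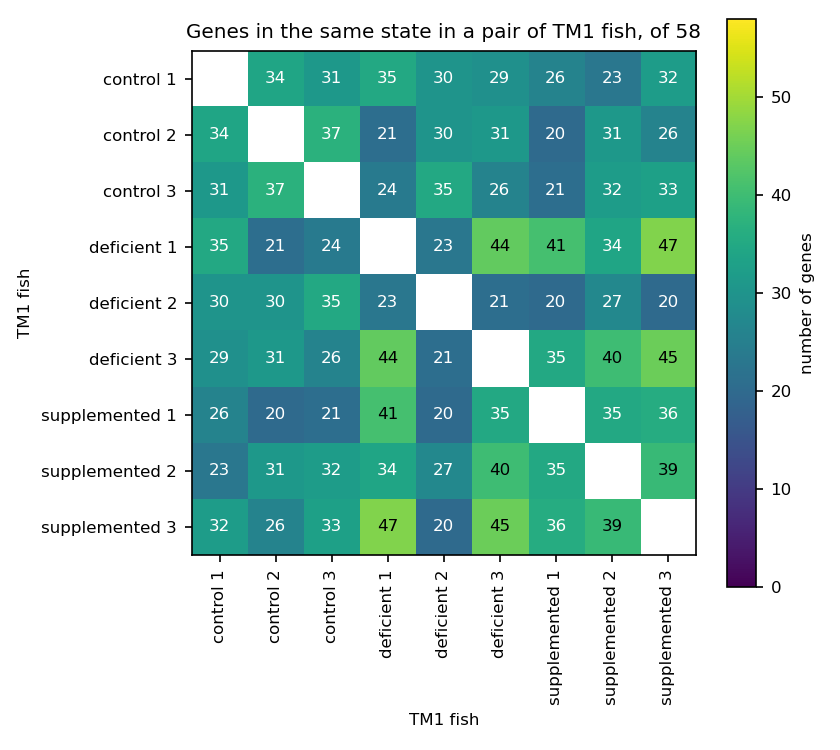
Number of the 58 on-off genes that are in the same state in each pair of Transgenic Mosaic 1 fish (TM1); both axes list the 9 fish, and the colour bar counts genes. Deficient fish 1 and 3 and supplemented fish 3 form the pairs with the highest counts (44 to 47), and deficient fish 2 has low counts with most fish.

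The split shared by the most members held 6 genes, and these included transporters and a junction protein. They were high in control fish 2 and 3, deficient fish 2 and supplemented fish 2, that is in fish of all 3 diets. The gene of largest gap among them, oatx (ENSDARG00000019713), encodes an organic anion transporter. Its log2 values in the high fish were 10.97, 11.02, 11.04 and 10.53, and in the low fish 5.86 (control 1), 5.73 (deficient 1), 4.95 (deficient 3), 5.96 (supplemented 1) and 5.14 (supplemented 3). The difference of the means was 5.36 and no fish lay between 5.96 and 10.53. The claudin cldn33b, of a family that forms tight junctions, was at 10.29, 9.26, 9.74 and 9.22 in the same fish and at 4.82 to 5.54 in the rest. SLC13A1, a sodium-sulfate cotransporter of the kidney in mammals, was at 7.73 to 8.64 against 4.63 to 5.17, and slc23a4, of the nucleobase and ascorbate transporter family, at 7.36, 7.68, 7.23 and 7.39 against 5.23 to 5.45. A feature with the symbol FABP7 (ENSDARG00000034650), the brain fatty acid binding protein, was at 9.85 to 10.13 against 6.75 to 7.49, and si:ch211-80h18.1 at 10.35 to 10.50 against 6.74 to 7.47. Another feature with the symbol FABP7 (ENSDARG00000007697) was at 13.16 to 13.49 in all 9 fish, so that only 1 of these features had 2 states.

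With a smaller gap of at least 0.5 allowed, 9 genes separated the same fish: the 6 members and RPE65, the retinoid isomerase (gap 1.16), TMEM72, a transmembrane protein (1.09), and col4a5, a collagen of basement membranes (0.57). This RPE65 feature (ENSDARG00000007480) was at 10.94, 10.01, 11.70 and 8.40 in the 4 high fish and at 6.11 to 7.25 in the others. Another feature with the symbol RPE65 (ENSDARG00000094752) did not follow the split. It was at 8.25, 8.97, 9.04 and 9.42 in the same 4 fish and at 8.93 to 9.44 in the others. The choroid plexus and ependyma markers, 8 of 17 measured, had scores between -0.10 and 0.17 in the 9 fish, at 0.05, -0.06, 0.14 and 0.17 in the high ones, which overlap the others. On arrays of whole tissue, fewer cells of a type and less RNA per cell cannot be told apart.

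**Figure D3:**
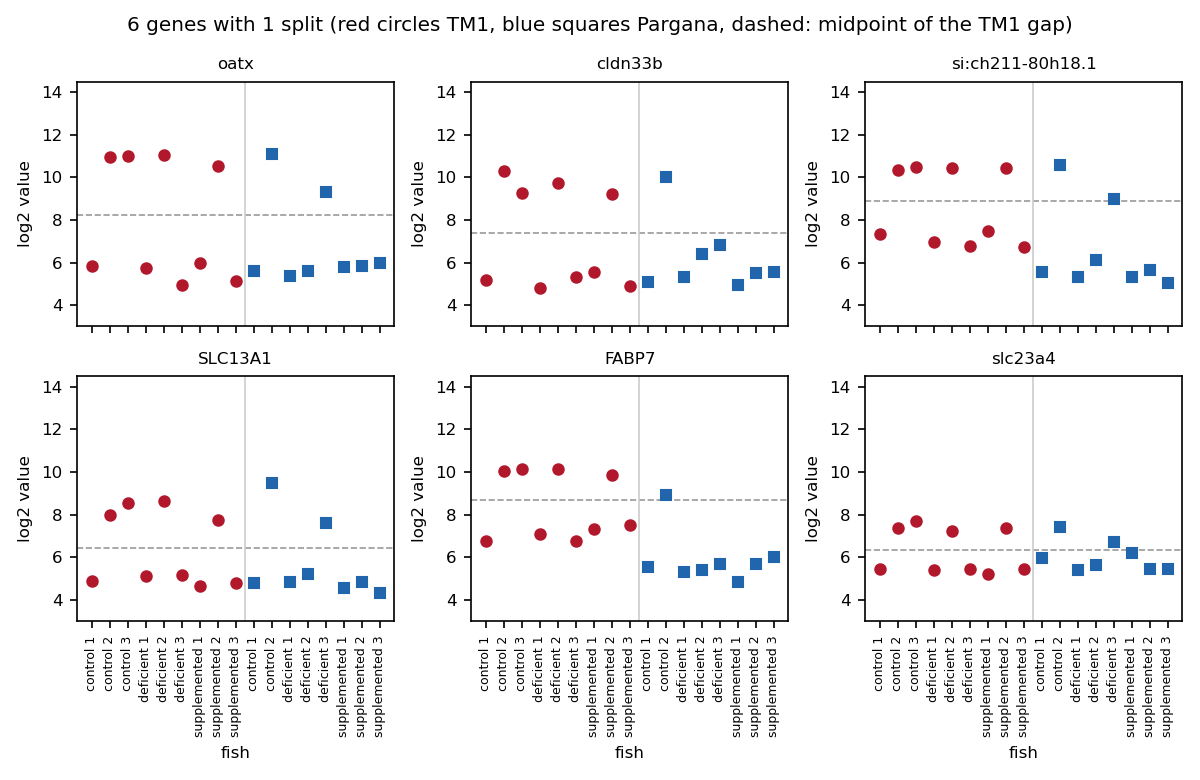
Log2 values (vertical axis) of the 6 genes with the most common split in each fish (horizontal axis), Transgenic Mosaic 1 (TM1) as red circles and Pargana as blue squares; the dashed line is the midpoint of the TM1 gap. In all 6 genes the same 4 TM1 fish are above the line, and Pargana control fish 2 is above it as well.

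Among the Pargana fish, which took no part in the choice of members, only control fish 2 was above the midpoint of the gap in all 6 genes. In deficient fish 3, cldn33b and FABP7 were below it. In Pargana control fish 2, oatx was at 11.09 and in deficient fish 3 at 9.30, while the other 6 Pargana fish were at 5.39 to 5.96. SLC13A1 was at 9.49 and 7.59 in these fish against 4.34 to 5.19, si:ch211-80h18.1 at 10.60 and 8.99 against 5.06 to 6.12, and cldn33b at 10.01 and 6.82 against 4.94 to 6.41. The gene slc23a4 was at 7.43 and 6.73 against 5.38 to 6.21, and FABP7 at 8.91 in control fish 2 but at 5.69 in deficient fish 3, inside the range of the other fish (4.85 to 6.02). Control fish 2 and deficient fish 3 were picked after these values were seen, so the shares that follow are a description. They were the highest pair of Pargana fish in 5 of the 6 members (83.3%), against 3.37% of all genes. They were the highest pair in 3 of 12 other genes with this split and a gap of at least 0.25, and in 13 of the 183 genes (7.10%), members included, whose high and low fish of this split did not overlap. Control fish 2 had the highest pituitary and hypothalamus score (1.46) and the highest choroid plexus and ependyma score (0.19) of all 17 fish. Pargana supplemented fish 3, low in all 6 members, had a pituitary and hypothalamus score of 1.43. Deficient fish 3 had 0.14 for this score and the lowest choroid plexus and ependyma score of all 17 fish (-0.15). The part of these scores in the result was not tested. All 9 genes of the split were highest in Pargana control fish 2, a fish that is the highest for 16.4% of all genes, and 7 of the 9 were above their Pargana mean in deficient fish 3, against 46.6% of all genes. With a gap of at least 0.25, 15 of 18 genes were above the mean in control fish 2 and 9 of 18 in deficient fish 3. Deficient fish 3 is the one with the other letter in its code; without it, control fish 2 was the only Pargana fish above the midpoint of the gap in these 6 genes.

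The second block held 4 members that were high in deficient fish 2 and supplemented fish 1 only. Among its genes cxcl11.5 is a chemokine, psmb13a a subunit of the immunoproteasome, which cuts proteins into peptides for antigen display, and casp22 a caspase. The chemokine was at 9.90 and 9.86 in the 2 high fish and at 5.68 to 7.43 in the other 7. The proteasome subunit psmb13a was at 8.44 and 7.80 against 5.14 to 6.10, casp22 at 8.99 and 8.01 against 5.21 to 6.46, and ptpdc1b, which has a tyrosine phosphatase domain, at 6.75 and 6.87 against 4.13 to 4.85. A total of 36 genes separated these 2 fish from the other 7 by at least 0.5, 32 of them not members. They included irf10, the peptide transporter tap2a (7.61 to 8.61 against 4.96 to 6.61), the proteasome subunits PSMB8 and PSMB9, the class I molecule mhc1zaa, gbp1, SOCS1, a feedback inhibitor of cytokine signalling, and the death receptor fas. Of 36 genes of MHC and antigen processing on the array, 5 had this split: psmb13a, tap2a, PSMB8, PSMB9 and mhc1zaa. Over all 15648 genes, 36 had it. Among the 5, psmb13a is a member, and the others were picked after their values were seen, so the count is a description. The macrophage and microglia score was also highest in these fish, at 0.41 and 0.30 against -0.26 to 0.09, but 2 of its 17 genes, marco and ctss2.1, are among the 36; its part in the result was not tested.

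In Pargana the 36 genes were highest in control fish 1 for 24 of them, a fish that is the highest for 14.9% of all genes, and above their Pargana mean in supplemented fish 1 for 32 of 36, against 47.2% of all genes. Control fish 1 was above the Pargana mean for 30 of 36, against 46.1% of all genes. In Pargana control fish 1, cxcl11.5 was at 9.39 against 6.34 to 7.71 in the other 7, and casp22 at 9.20 against 4.95 to 7.47. Supplemented fish 1, at 7.47, was also above the midpoint of the casp22 gap (7.23). The other members did not set control fish 1 apart. The gene ptpdc1b was high in all 8 Pargana fish (6.24 to 7.99). For psmb13a there were 2 states with another division, at 7.24 (control 2), 7.97 (deficient 2), 8.74 (supplemented 1) and 7.49 (supplemented 2) against 4.72 to 5.38. The macrophage and microglia score of Pargana control fish 1 was 1.06, the highest of all 17 fish. Supplemented fish 1 had a score of 0.12, and the remaining Pargana fish had -0.68 to 0.11. The part of this score in the result was not tested.

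**Figure D4:**
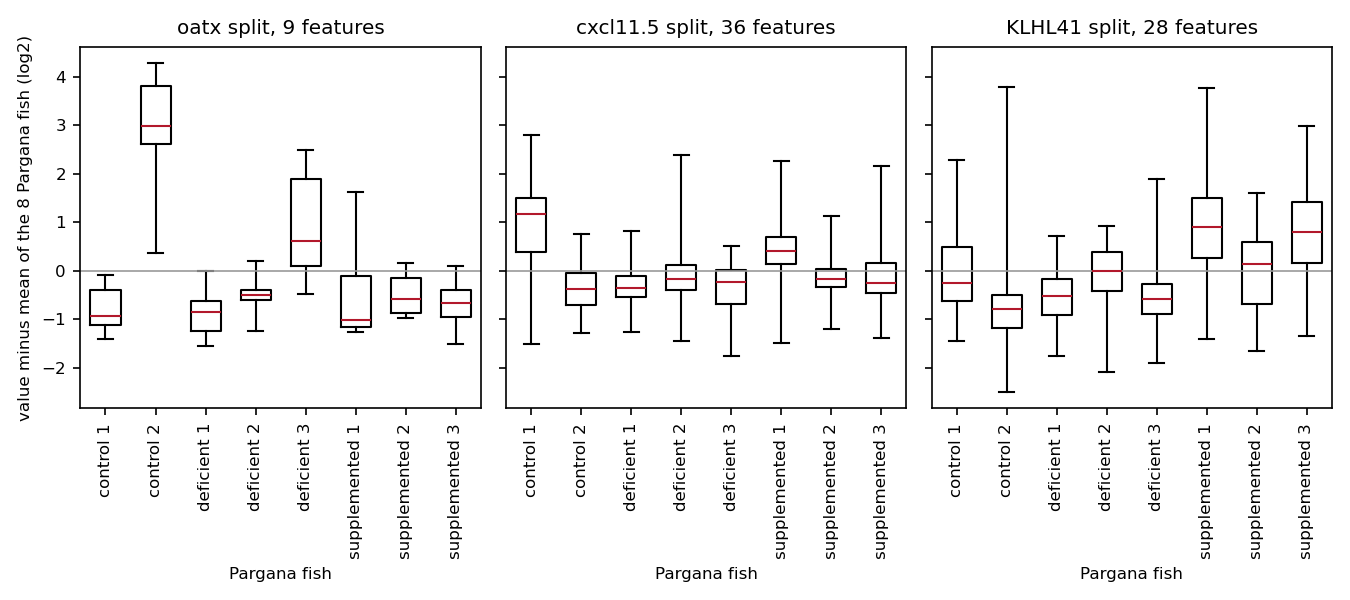
Values of the 8 Pargana fish for the genes that share a split among Transgenic Mosaic 1 fish with a gap of at least 0.5, as log2 value minus the gene's Pargana mean (vertical axis). Boxes span the quartiles, red lines are medians and whiskers reach the lowest and highest gene. The 9 genes of the oatx split stand high in control fish 2, the 36 of the cxcl11.5 split in control fish 1, and the 28 of the KLHL41 split in supplemented fish 1 and 3.

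The third block was high in control fish 3 and deficient fish 2. KLHL41 (ENSDARG00000006757), a kelch protein of skeletal muscle, was at 11.12 and 11.48 in these fish and at 5.29 to 6.67 in the other 7, and si:dkey-239b22.1 at 8.28 and 6.98 against 4.36 to 4.99. Among Transgenic Mosaic 1 fish the muscle marker score was lowest in the same 2, at -0.67 and -0.71. Another feature with the symbol KLHL41 (ENSDARG00000068888) ranged from 6.60 to 7.89 with a largest gap of 0.65. In all, 28 genes had this split with a gap of at least 0.5, among them the epithelial adhesion molecule epcam, the protease inhibitor spint2, the junction proteins cldnb and oclnb, and the transcription factor GRHL1. The claudin cldnb was at 6.56 to 8.57 in the 2 fish and at 4.28 to 5.22 in the others. In Pargana, 24 of the 28 genes were above their mean in supplemented fish 1 (47.2% of all genes) and 21 in supplemented fish 3 (56.4% of all genes). These 2 fish had the highest muscle scores of all 17, at 1.49 and 0.96, and the highest meninges and vessels scores, at 0.63 and 0.42; their part in the result was not tested. The member si:dkey-239b22.1 was at 8.38 and 8.13 in these 2 Pargana fish and at 4.84 to 5.16 in the other 6, whereas KLHL41 was low in all 8 (5.50 to 7.40).

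Another block of 4 genes divided the fish exactly by diet, with all 3 control fish high and all 6 fish on the other diets low. ENSDARG00000095735, a gene known only by a clone name, was at 13.56, 13.71 and 13.50 on the control diet, at 9.36, 9.45 and 9.15 on the deficient and at 9.03, 8.53 and 8.67 on the supplemented diet. ENSDARG00000078938 was at 10.92 to 11.35 on the control diet, 6.92 to 7.20 on the deficient and 7.04 to 7.13 on the supplemented diet. The next, si:dkey-58f10.8, was at 7.24, 7.78 and 7.34 on the control diet, 5.51, 5.56 and 5.27 on the deficient and 5.01, 5.28 and 5.44 on the supplemented diet. No fish of another diet reached the control fish in any of them, and deficient and supplemented fish overlapped in the latter 2 genes. Over all 15648 genes, 290 had all 3 control fish above all 6 others. For the oatx, cxcl11.5 and KLHL41 splits, which cross the diets, 183, 305 and 345 genes did not overlap. With a gap of at least 0.5 the diet split had 10 genes, and these 3 splits had 9, 36 and 28. The diet split set 3 fish against 6, the oatx split 4 against 5, and the cxcl11.5 and KLHL41 splits 2 against 7. How many genes separate by order alone depends on these sizes, so the counts are not compared between splits. In Pargana the 3 genes named above were low on every diet, at 9.16 to 9.63, 6.82 to 8.20 and 5.16 to 6.04, with the 2 control fish inside the range of the other 6 or below it. A further 6 genes separated the control fish by 0.51 to 0.82; they included ANKRD2 and eef2a.2, an elongation factor of translation. All 3 control fish were 1 diet group, so diet and anything else that these fish had in common cannot be told apart.

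**Figure D5:**
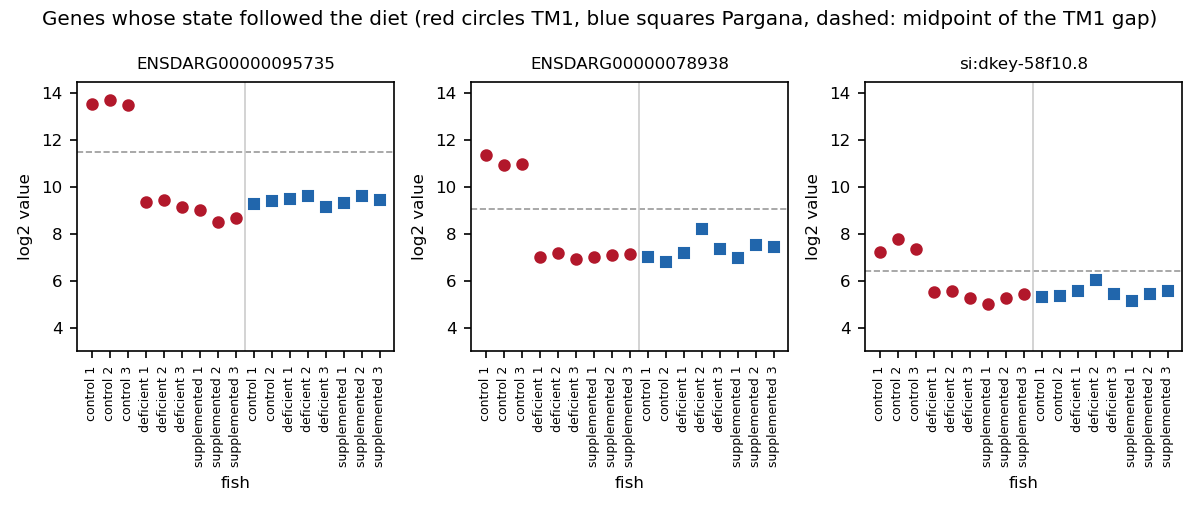
Log2 values (vertical axis) in each fish (horizontal axis) of genes whose state followed the diet, Transgenic Mosaic 1 (TM1) as red circles and Pargana as blue squares; the dashed line is the midpoint of the TM1 gap. Another gene that followed the diet is not shown. In the genes shown, the 3 TM1 control fish lie above the line, and the 6 other TM1 fish and all Pargana fish lie below it.

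The remaining shared splits held 2 or 3 genes. In 3 genes only supplemented fish 1 and 2 were low: trim35-40, a member of the TRIM family of ubiquitin ligases, was at 4.69 and 4.44 there and at 8.28 to 9.87 in the other 7, ANKRD2, a muscle ankyrin repeat protein, at 5.10 and 5.62 against 7.37 to 8.54, and ENSDARG00000017730 at 7.07 and 7.49 against 9.01 to 10.50. In Pargana trim35-40 was high in all 8 fish (8.75 to 9.61). The gene of largest gap of all, zgc:171679, was at 4.49 in control fish 1 and 4.40 in deficient fish 2 and at 10.29 to 11.55 in the other 7, and zgc:171490 was low in the same 2 fish (4.46 and 3.87 against 7.30 to 9.14). Both were high in all 8 Pargana fish, at 9.83 to 11.09 and 6.75 to 8.37. Pairs of genes with 2 low fish were also ENSDARG00000069936 with si:ch211-283g2.1 (control 3 and deficient 2) and ENSDARG00000076531 with zgc:112038 (deficient 1 and supplemented 1). Control fish 3 and deficient fish 2 were also the 2 high fish of the KLHL41 block. ENSDARG00000069936 was at 5.62 and 4.94 in its low fish against 9.08 to 11.01, and si:ch211-283g2.1 at 5.07 and 5.16 against 7.45 to 8.22. High in control fish 1 and deficient fish 1 and 2 were si:rp71-36a1.3 (8.09, 8.40 and 9.17 against 4.75 to 5.41) and ENSDARG00000090578 (9.58, 10.23 and 10.74 against 6.55 to 7.27). One pair without symbols was low in control fish 1 and 2 and deficient fish 2, the fish in which gucy2f, described below, was high.

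Neighbouring genes were looked for in the gene order of the RefSeq assembly GRCz12tu, in which 35 of the 58 members were found by symbol or synonym. A single pair of members lay within 10 genes of each other, the adjacent si:ch211-117n7.6 and si:ch211-117n7.7, and these shared their split. Both were high in deficient fish 1 and 3 and supplemented fish 3, at 7.71, 8.01 and 7.78 against 4.52 to 5.30 for the first and at 10.19, 10.36 and 9.71 against 6.68 to 8.07 for the second. All 8 Pargana fish were on the low side of both, at 4.28 to 5.17 and 6.23 to 7.42. The genes zgc:171679 and zgc:171490 also shared a chromosome and a split but were 585 genes apart, and the other pairs on a common chromosome, 32 genes apart or more, had different splits.

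Members with a split of their own, high and low told apart, included genes of metabolism and mitochondria. For SHMT1, mdh1b and TSFM, another member divided the fish alike with high and low exchanged. KHK, ketohexokinase of fructose metabolism, was at 5.36 (control 2), 5.19 (deficient 3) and 5.27 (supplemented 2) and at 9.42 to 9.66 in the other 6, and all 8 Pargana fish were high (10.10 to 10.52). SHMT1, a serine hydroxymethyltransferase of folate metabolism, was at 5.92 and 5.81 in control fish 1 and 2 against 8.56 to 9.79, and all 8 Pargana fish were low (5.74 to 6.90). CYP4V2 (ENSDARG00000061585), a fatty acid hydroxylase of the cytochrome P450 family, was at 7.71 in control fish 2 and 8.60 in supplemented fish 1 against 4.30 to 5.33. It was low in all Pargana fish (4.24 to 5.13). Another feature with the symbol CYP4V2 (ENSDARG00000062132) was at 4.42 to 4.83 in all Transgenic Mosaic 1 fish. The malate dehydrogenase mdh1b was at 8.38 (deficient 1), 8.91, 9.19 and 9.34 (supplemented 1, 2 and 3) against 6.50 to 6.82. The mitochondrial translation factor TSFM was low in deficient fish 1 and 3 and supplemented fish 3 (4.53 to 4.60 against 6.56 to 7.41) and high in all Pargana fish (6.82 to 7.96).

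Other members had splits of their own as well, again with high and low told apart. P2RY8, a G protein coupled receptor, was at 8.12, 7.18 and 7.32 in control fish 1, deficient fish 1 and supplemented fish 1 and at 10.70 to 11.20 in the other 6, and its Pargana values of 5.38 to 8.04 all lay on the low side. The retinal guanylate cyclase gucy2f was at 7.97 and 7.98 in control fish 1 and 2 and at 8.26 in deficient fish 2, against 4.57 to 4.77. Only 1 of these 3 fish had a high eye and pineal score, the others being at -0.39 and -0.08. GDF2, a ligand of the bone morphogenetic protein family, was at 8.87, 8.91 and 8.83 in deficient fish 3 and supplemented fish 1 and 2 against 5.73 to 6.99, below all 8 Pargana fish (9.64 to 10.61). TMBIM1, with a Bax inhibitor motif, was at 8.04 to 9.26 in the control fish and deficient fish 2 against 4.04 to 4.61. The complement component c6.1 was at 9.19 to 9.69 in 5 fish against 5.61 to 6.33. The nuclear receptor rorcb was at 11.92 to 12.40 in control fish 1 and supplemented fish 2 and 3 against 9.26 to 10.33. The clone-named si:ch211-281l24.3, second in gap (5.12), was at 10.24 (control 3), 10.98 (deficient 2), 10.06 and 10.23 (supplemented 2 and 3) against 4.31 to 4.93, and all Pargana fish were low (4.52 to 5.16). ENSDARG00000094219 was at 9.72, 9.37 and 9.18 in control fish 2 and 3 and supplemented fish 3 against 4.60 to 4.76, again with all Pargana fish low (4.83 to 5.26).

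By family, the members were mostly genes without a descriptive name. Clone-named loci (names beginning si: or zgc:) made up 16 of 58 members (27.6%) against 7.23% of all genes, and features without a symbol 15 of 58 (25.9%) against 15.3%. The families with a member were solute carriers and ABC transporters with 2 of 323 genes (SLC13A1 and slc23a4), and with 1 gene each TRIM proteins (trim35-40, of 63), MHC and antigen processing (psmb13a, of 36), chemokines, interleukins and their receptors (cxcl11.5, of 91), cytochrome P450 and conjugating enzymes (CYP4V2, of 85), and G protein coupled receptors (P2RY8, of 111). No member was in the other families looked for, such as 25 PIM kinases or 110 zinc finger genes. With 0.371% of all genes being members, a named family of these sizes holds about 1 member or fewer at that share, and nothing is read from these counts. The families were assigned by patterns in the symbol, so that members without a symbol and clone-named ones could not be placed, and oatx and c6.1 matched neither the transporter nor the complement pattern.

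Set against the midpoint of each gap, all 8 Pargana fish were high in 13 members and low in 16, and 29 members had Pargana fish on either side. Applied to the 8 Pargana fish, the same rule was met by 13 of the 58 members (22.4%), against 106 of all 15648 genes (0.677%). They were oatx, SLC13A1, si:ch211-80h18.1, gucy2f, si:rp71-36a1.3, si:ch211-283g2.1, si:dkey-239b22.1, psmb13a, ENSDARG00000093349, also known only by a clone name, and 4 genes without a symbol. In these genes the Pargana fish had states too, but not always at the levels of the other population. ENSDARG00000093349 was at 10.02 and 9.89 in Pargana supplemented fish 1 and 3 and at 4.31 to 5.15 in the other 6, whereas the high Transgenic Mosaic 1 fish (control 2 and 3 and deficient 2) reached 6.53 to 6.81. The cyclase gucy2f was at 8.99 to 9.55 in 5 Pargana fish and at 5.30 (deficient 1), 6.16 (supplemented 1) and 4.99 (supplemented 3) in the others. The gene si:rp71-36a1.3 was at 7.59 to 8.47 in 5 and at 4.47, 4.94 and 4.89 in control fish 1, deficient fish 1 and supplemented fish 1. The count was 10 without Pargana deficient fish 3, and 8 without Pargana control fish 2 or without supplemented fish 1.

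Differences between group means were fitted with limma across all 15648 genes and called at a Benjamini-Hochberg adjusted p of 0.05. Each array is a separate fish, so the tests set differences of means against the spread between single fish, pooled over all 6 groups. Between the populations, averaged over the diets, 18 of 58 members were called (11 higher and 7 lower in Transgenic Mosaic 1), where 13.3% of all genes were; the median difference was 0.50 over the members and -0.01 over all genes. On the deficient against the control diet in Transgenic Mosaic 1, 4 members were called, all lower, where 0.0256% of all genes were. On the supplemented against the control diet 5 were called, the 4 genes that followed the diet and, higher, mdh1b, where 0.0831% were; the call of mdh1b was lost without any 1 of the control or supplemented fish. Between the supplemented and the deficient diet limma called no member, where 0.00639% of genes were called. At an unadjusted limma p under 0.05 there were 10 members and 522 of all 15648 genes. All these comparisons use the values that chose the members, so nothing is read from these counts.

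The diet differences within Pargana use no value that chose the members, but their errors do, since the fit shares 1 variance per gene over all 6 groups. For si:ch211-283g2.1 the SD was 1.56 and 1.51 in Transgenic Mosaic 1 control and deficient fish (n = 3 each) and 0.18 in Pargana deficient fish (n = 3). On the deficient against the control diet 1 member of 58 was called, where 0.0383% of all genes were. That gene, si:ch211-283g2.1, was at 10.50 and 10.02 in the 2 control fish, at 4.41, 4.74 and 4.47 in the deficient and at 5.12, 4.55 and 6.43 in the supplemented fish. The control fish lay above all others. It fell by 5.72 (SE 0.848, limma adjusted p = 0.026) on the deficient diet; on the supplemented diet the limma adjusted p was 0.0919. The deficient call was lost without Pargana control fish 1 (limma adjusted p = 0.187) without any 1 deficient fish (0.0586 to 0.0967), and without Pargana supplemented fish 1 or Transgenic Mosaic 1 supplemented fish 2 or 3, which enter through the shared variance (0.0514 to 0.0563). In Transgenic Mosaic 1 the low fish of this gene were control fish 3 and deficient fish 2. On the supplemented against the control diet limma called no member, where 0.032% of all genes were called. At an unadjusted limma p under 0.05 there were 2 members and 941 of all 15648 genes. Between the supplemented and the deficient diet limma called no gene at all (0%), with 2 members and 1018 genes at an unadjusted p under 0.05.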

How the data were processed

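The deposited values were used as they are: log2 values, 1 for each Ensembl gene, from the authors' RMA processing with genome build Zv9, per the submitters' processing notes; versions and the log base are not given in the sources used here, and log2 is RMA's usual output. The table has 15649 rows, and 1 that names no gene was left out. Array number limits precision. No slide or scan batch is given in the labels. RefSeq (10690 genes matched by symbol or synonym) is of another build, so only its gene order was used and no coordinates.

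The members, the marker and family lists and the tests were chosen with earlier results of these data known. Named were the 12 members with a symbol of largest gap, those that met the rule among Pargana, were called in a diet comparison, followed the diet, shared a split with a neighbour within 10 genes, or belonged to a listed family, and members without a symbol that shared a split with these or had a gap among the 5 largest. Other members, all genes that are not members and the splits at a gap of 0.5 were picked after their values were seen. So were the single Pargana fish set beside each split. Results for 1 member, and for some genes that share a split, are not reported here by name.

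limma 3.58.1 in R 4.3.3 fitted the means of 6 groups over 17 arrays (11 residual and 2.84 prior degrees of freedom, two-sided tests). The rule and the fit were tested on simulated data. Python 3.11.15, pandas 2.3.3, numpy 2.4.6 and matplotlib 3.10.9 were used. Alternatives were other gaps, spans and side sizes, quantile normalization again, median centring, the lowest 25% of genes left out, only the brightest feature of a symbol, trended or robust moderation, and each array left out.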

Additional observations from a re-analysis of the deposited data

Results flagged for a closer look

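The marker scores of the 2 populations and the count of members in the smaller side, 23 groups of values in all, were looked at for a fish far from its group, and 4 of the marker scores had one; chance alone gives about 1 in 20. The eye and pineal score of Transgenic Mosaic 1 deficient fish 2 was 1.16. The macrophage and microglia score of Pargana control fish 1 was 1.06, and its radial glia and astrocyte score 0.52. The oligodendrocyte score of Transgenic Mosaic 1 deficient fish 3 was -0.26.

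The limma interaction of population and diet was past the threshold for the 4 genes that followed the diet in Transgenic Mosaic 1. Over all 15648 genes, 8 were past it for the deficient against the control diet and 7 for the supplemented against the control diet. The interaction holds the gap by which the 4 genes were chosen, so its values are a description and nothing is read from them. For the deficient against the control diet the interaction (Transgenic Mosaic 1 minus Pargana) was -4.34 for ENSDARG00000095735, -4.72 for ENSDARG00000078938, -2.35 for si:dkey-58f10.8 and -5.41 for the remaining gene. For the supplemented diet it was -4.96, -4.39, -2.26 and -4.42 in the same order.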

How the results depend on the processing

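The number of on-off genes was 35 with a gap of at least 2, 38 with each side spanning at most 50% of the gap, 34 with 3 or more fish on each side and 35 without the lowest 25% of genes; the corresponding counts that also met the rule in Pargana were 8, 5, 2 and 5. Leaving out each Transgenic Mosaic 1 fish gave 52 to 63 genes, of which 46 to 57 were members, and leaving out each Pargana fish gave 8 to 13. After quantile normalization again 56 of the 58 members met the rule. Counts of members called by limma with 1 array left out were 0 to 2 for supplemented against deficient Transgenic Mosaic 1 fish (1 without deficient fish 1, 2 without supplemented fish 3) and 0 to 1 for each of the 3 Pargana diet comparisons, with 1 on the supplemented against the control diet without Pargana control fish 2, Pargana supplemented fish 2, Transgenic Mosaic 1 control fish 3 or deficient fish 2, and 1 between supplemented and deficient without Pargana supplemented fish 2; the 1 call for the deficient diet was 0 without the lowest 25% of genes, where the gene is not tested. The call of mdh1b was lost without any 1 Transgenic Mosaic 1 control or supplemented fish (limma adjusted p = 0.0603 to 0.0915), and that of TMBIM1 between the populations in 13 of 22 alternatives. No direction reversed. The cause of these changes was not tested. No paired analysis was possible because the labels number no fish across groups. Low states near the bottom of the array have no reliable order.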
